A study of Mus musculus with 3 samples.

Results

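Interferon-stimulated genes are the genes that a cell switches on when interferon reaches it. The 45 genes followed here are interferon-induced genes and the transcription factors that drive them, chosen by name and not by their values. All 45 had a row among the 20677 genes of the table. They were read in 3 libraries of skin mast cells sorted from mice of the mixed background C57BL/6xCD1xFVB at 1 week after birth. The early EMP library came from Csf1rCre/EYFP mice given a pulse of 4-hydroxytamoxifen (4'OHT), the drug that activates an inducible Cre, at embryonic day 8.5. The late EMP library came from Runx1Cre/EYFP mice pulsed at embryonic day 8.5, and the fetal HSC library from Runx1Cre/EYFP mice pulsed at embryonic day 9.5. EMP is the erythro-myeloid progenitor of the yolk sac, and HSC the haematopoietic stem cell. All 3 groups carry the EYFP reporter and had the drug; the sources used here do not give the number of animals or the gate of the sort. By name, Cre is under Csf1r control in the first line and under Runx1 control in the other, so driver and origin cannot be told apart between early EMP and the rest. Each origin has 1 library and no value below has a replicate check. Levels are given throughout in the order early EMP, late EMP, fetal HSC, in FPKM, that is, fragments per kilobase of transcript scaled to the mapped fragments of the library. A log2 difference is taken between values of FPKM + 1.

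In textbook terms, type I interferons bind the receptor chains Ifnar1 and Ifnar2, and the kinases Jak1 and Tyk2 then phosphorylate Stat2. With Irf9 it acts in a complex that binds the interferon-stimulated response element of target promoters. Interferon gamma acts through Ifngr1 and Ifngr2, and its signal reaches promoters at the gamma-activated site. The products degrade viral RNA, block entry or budding of viruses, sense foreign nucleic acid, or feed back on the pathway. Mast cells carry interferon receptors and lie in the skin, a barrier tissue where virus can enter.

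All 9 mast cell markers read were at 38.8 FPKM or more in each library. Markers of other cell types were also read, and their levels differed between the libraries. Of the macrophage list, with 9 genes, the summed level was 80.1, 55.4 and 23.1 FPKM. The dendritic and Langerhans cell list summed to 0.21, 2.01 and 7.90 FPKM over 5 genes with a row. Markers of plasmacytoid dendritic cells, the main interferon producers of blood, summed to 0.30, 3.33 and 0 FPKM over 5 genes, and Siglech, their defining lectin, was at 0.03 FPKM or less. Neutrophil markers summed to 3.02, 47.9 and 112 FPKM over 4 genes with a row, of which S100a8 was at 1.3, 0 and 29.0 FPKM, and Ly6g, the defining surface marker, was at 0.42 FPKM or less. Melanocyte markers summed to 1.59, 13.8 and 40.7 FPKM over 5 genes, and erythroid markers to 186, 15.0 and 13.7 FPKM over 5. Gapdh, a housekeeping gene, was at 68.9, 295 and 287 FPKM. Sex-linked RNA differed too, with Xist at 25.6, 0.53 and 52.0 FPKM and Ddx3y at 20.7, 38.5 and 0.32 FPKM, so that sex and origin cannot be told apart. In bulk RNA fewer cells of a type and less RNA per cell cannot be told apart.

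The response element was searched in RefSeq promoter windows of build GRCm38.p6, each reaching from 250 bases before the transcription start to 50 bases after it. A window was found for 35 of the 45 genes. The response element, spelled as GAAA, 2 bases of any kind and GAAA again, on either strand, stood in a window of 19 of these 35 genes, or 54.3%. Among the 13904 genes of the table with a symbol and a window the share was 3.75%. The gamma-activated site, TTCNNNGAA, which reads the same on both strands, stood in 12 of the 35, or 34.3%, against 8.5%. Both motifs occurred in the windows of 6 members, or 17.1%, against 0.626%; the motifs overlap by 3 bases in 2 of these, Bst2 and Ifitm3. Matches are descriptions of letters, not of bound sites, and the members were listed by name as interferon-induced genes.

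The stretches of 150 bases just before the start are shown for Isg15, the classical target, and for the 5 members with a window that were at least 2-fold higher in fetal HSC than in early EMP. Each is RefSeq's sequence on GRCm38.p6, written 5' to 3' in the direction of transcription. Capitals mark the letters of the response element, read on either strand. Isg15 lies at chr4:156200819-156200968 on the minus strand and holds 3 overlapping matches. Bst2, at chr8:71537473-71537622 on the minus strand, holds 2 overlapping ones. Ifi205, at chr1:174031756-174031905 on the minus strand, holds 1, and its window holds another after the start. Gbp2, at chr3:142620513-142620662 on the plus strand, holds 1. Ifit1, at chr19:34640739-34640888 on the plus strand, holds 2. Ifitm1, at chr7:140967926-140968075 on the plus strand, holds none in its window. That stretch lies inside the gene's span, which begins at base 140967429, so it precedes a later start. The bases before the span were not searched.
Isg15: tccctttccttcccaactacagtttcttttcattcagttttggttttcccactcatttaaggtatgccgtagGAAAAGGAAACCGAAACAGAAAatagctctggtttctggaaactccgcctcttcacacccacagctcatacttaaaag
Bst2: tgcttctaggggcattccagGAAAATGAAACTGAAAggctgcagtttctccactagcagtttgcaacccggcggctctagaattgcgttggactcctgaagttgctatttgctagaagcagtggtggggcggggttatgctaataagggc
Ifi205: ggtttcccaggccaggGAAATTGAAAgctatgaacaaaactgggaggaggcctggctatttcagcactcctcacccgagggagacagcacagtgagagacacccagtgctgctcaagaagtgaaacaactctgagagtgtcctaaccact
Gbp2: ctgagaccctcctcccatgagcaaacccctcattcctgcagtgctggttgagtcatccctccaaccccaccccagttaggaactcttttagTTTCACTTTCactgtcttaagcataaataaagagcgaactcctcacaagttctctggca
Ifit1: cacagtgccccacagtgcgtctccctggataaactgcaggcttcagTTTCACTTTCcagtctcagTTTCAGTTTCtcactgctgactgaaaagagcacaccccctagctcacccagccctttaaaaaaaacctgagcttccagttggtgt
Ifitm1: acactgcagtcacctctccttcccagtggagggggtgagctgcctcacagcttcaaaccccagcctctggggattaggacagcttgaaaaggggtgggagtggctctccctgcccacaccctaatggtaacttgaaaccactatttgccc

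In Isg15 the matches span bases -78 to -57 from the start, and in Gbp2 bases -59 to -50. Those of Bst2 lie further out, from -130 to -115, and the upstream one of Ifi205 from -134 to -125. The 16 members with a window but no response element included Irf1, Irf7, Irf9, Isg20, Samhd1 and Ifi35. Reaching 5 FPKM in at least 1 library were 10 of the 19 members with the element and 9 of the 16 without, with medians of the highest level of 5.40 and 7.21 FPKM. Kept were 15 members with the element and 12 without. At least 2-fold apart in late over early EMP were 2 higher and 1 lower with the element, and 1 higher and 1 lower without. There 7.55% of kept genes with a symbol were higher and 4.24% lower. In fetal HSC over early EMP it was 4 higher and 2 lower with it, and 1 higher and 0 lower without, where 8.08% of kept genes with a symbol were higher and 8.60% lower. Between fetal HSC and late EMP it was 4 higher and 2 lower with it, and 0 and 0 without. The shares of kept genes with a symbol were 2.73% higher and 5.36% lower. The genes with the element include Ifit1, Ifi205 and Oas1a, which were under 1 FPKM in a library. Ifitm1, counted as without it, was searched only around a start inside its span.

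**Figure D1:**
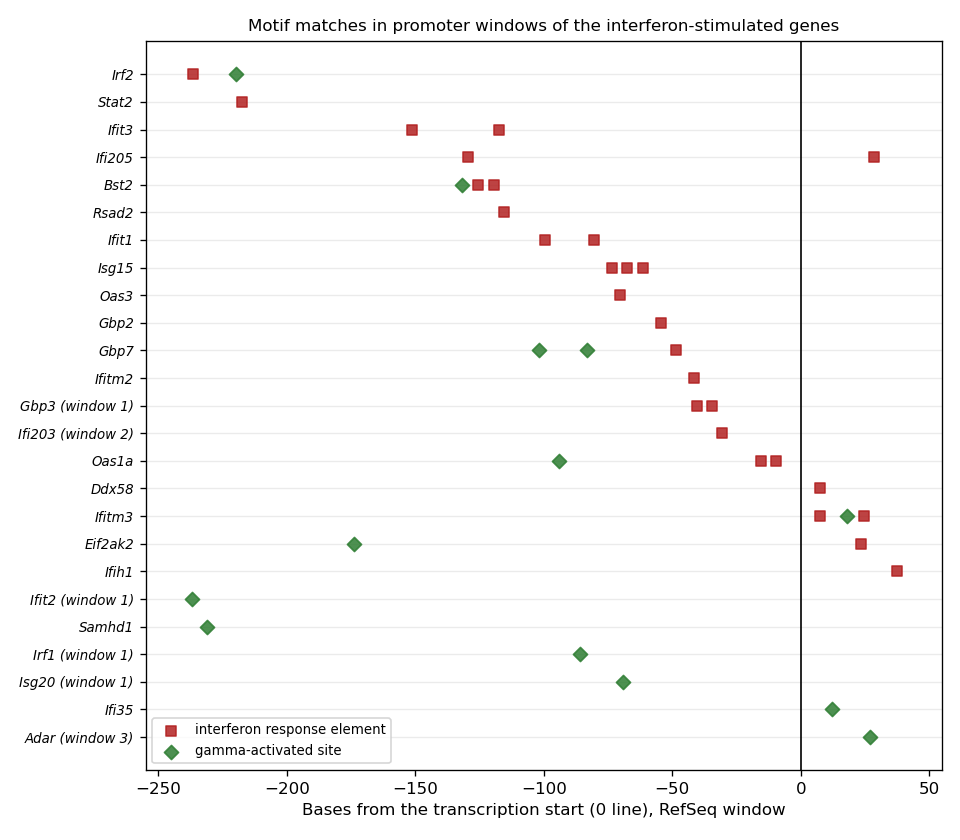
Positions of motif matches in the promoter windows of the interferon-stimulated genes; the horizontal axis gives bases from the transcription start (vertical line), each row is 1 gene, squares mark the response element and diamonds the gamma-activated site. The 19 genes with squares stand above the 6 that hold a gamma-activated site alone.

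Levels spanned a wide range, as the plot of levels by role shows. Of the 45 members 33 reached 1 FPKM in at least 1 library, and 24 did so in all 3 libraries. The 12 others stayed between 0 and 0.89 FPKM. The members summed to 869, 813 and 932 FPKM, or 0.136%, 0.132% and 0.146% of all FPKM. One gene, Ifitm2, made up 66.9%, 64.4% and 62.9% of these sums. The median level over all 45 was 3.46, 3.02 and 2.86 FPKM, beside 2.28, 2.54 and 2.15 FPKM over all genes with a symbol. Ranking the 33 kept members by library, 15 peaked in early EMP, 4 in late EMP and 14 in fetal HSC. Among all kept genes with a symbol the shares were 35.6%, 35.8% and 28.6%.

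**Figure D2:**
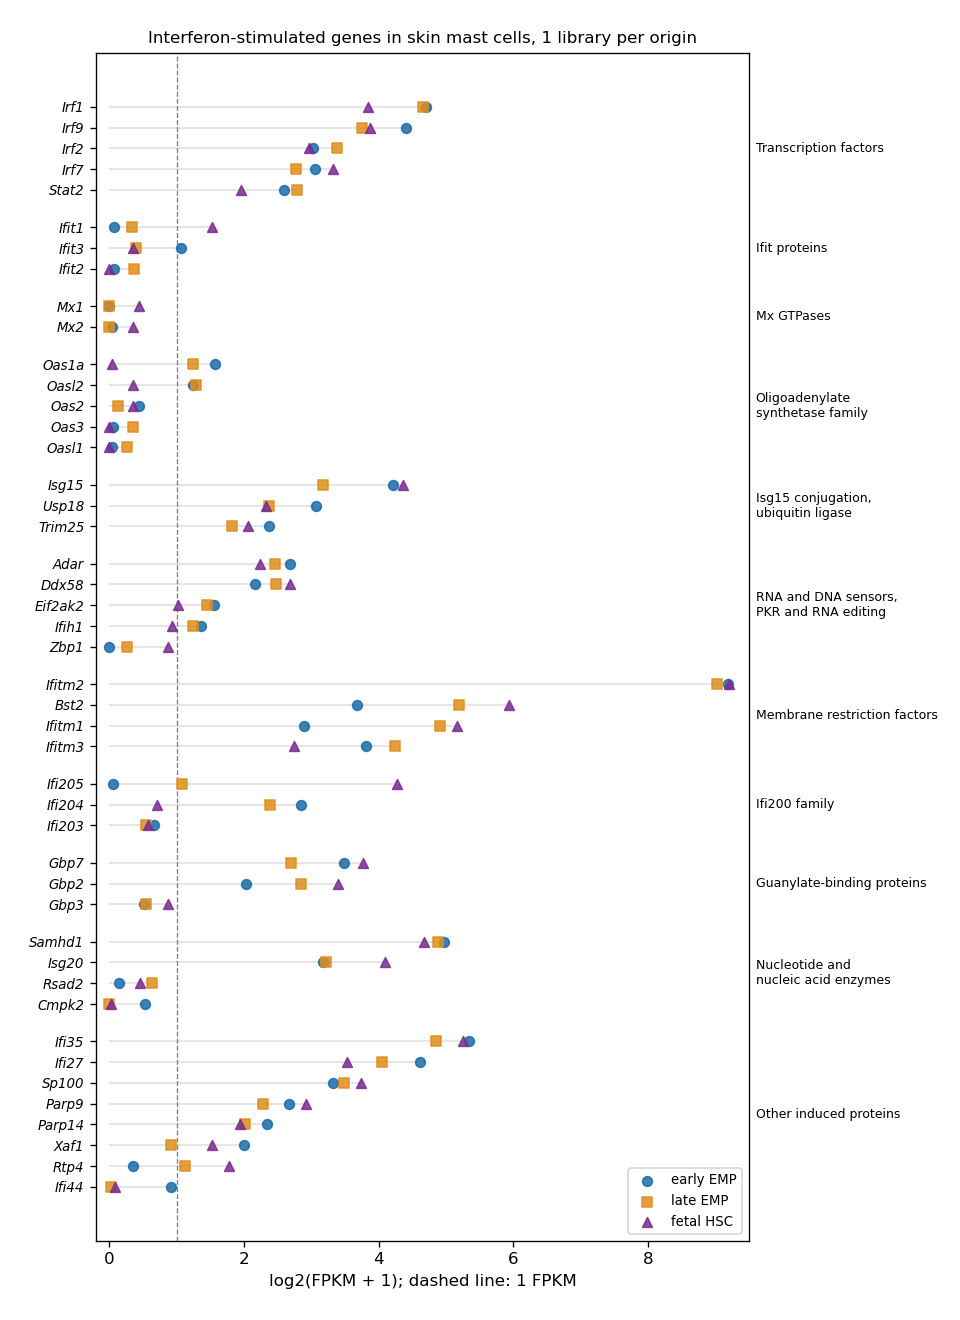
Level of each of the 45 genes as log2(FPKM + 1) on the horizontal axis, grouped by role, with 1 symbol per library and the dashed line at 1 FPKM. Ifitm2 stands alone at 523 FPKM or more, most effectors of the Ifit, Mx and Oas families lie left of the dashed line, and Ifi205 and Ifi204 are spread in opposite orders.

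Transcription factors of the pathway were present in each library and none was 2-fold apart in any comparison. The same held for 75.7% of kept genes with a symbol. Irf1, an activator that interferon gamma induces strongly, was at 25.1, 24.2 and 13.3 FPKM. Its antagonist Irf2 was at 7.17, 9.43 and 6.84 FPKM. The fetal HSC library had the lowest level of both.
Irf9, the DNA-binding part of the type I complex, was at 20.3, 12.4 and 13.7 FPKM. Stat2, its partner, was at 5.06, 5.89 and 2.86 FPKM, and its log2 difference was -0.84 for fetal HSC over late EMP, or -1.02 with a pseudocount of 0.1 FPKM. Irf7, the factor that amplifies interferon alpha genes, was at 7.28, 5.85 and 8.96 FPKM. The 5 factors together thus had no common direction between the EMP libraries, with 2 higher and 3 lower, and 4 of 5 were lower in fetal HSC than in early EMP, of which Irf2 turned to 0.013 with median-of-ratios scaling.

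The membrane restriction factors held the most abundant member, and 3 of the 4 genes were at least 2-fold apart in some comparison. Of kept genes with a symbol 75.7% lay within 2-fold in every comparison. Ifitm2, a protein that hinders fusion of viruses with endosomes (chromosome 7, 140954837 to 140959686, GRCm38.p6), was at 582, 523 and 587 FPKM. It lay within 2-fold in every comparison and stood above at least 99.4% of genes with a symbol. Of the 50-base words of its transcript 48.5% also occur in transcripts of other genes, so its value can include reads of copies.
Its neighbour Ifitm1 (chromosome 7, 140967429 to 140969827) was at 6.45, 29.0 and 35.0 FPKM. Early EMP was the low library, and the log2 difference from it was 2.01 for late EMP and 2.27 for fetal HSC. Ifitm3, the third gene of that cluster (141009590 to 141010744), followed another order, with 13.0, 17.9 and 5.67 FPKM. Fetal HSC was the low library here, with log2 differences of -1.07 over early EMP and -1.5 over late EMP; the first was under 2-fold with median-of-ratios scaling. The Ifitm1, Ifitm2 and Ifitm3 sum was 601, 570 and 627 FPKM.

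Bst2, or tetherin, which holds budding virus at the cell surface (chromosome 8, 71534255 to 71537472), was at 11.8, 35.6 and 60.1 FPKM. Each origin was higher than the one named before it. The log2 differences were 1.52 for late over early EMP, 2.26 for fetal HSC over early EMP, and 0.74 between fetal HSC and late EMP. Without pseudocount Bst2 was 5.10 times as high in the fetal HSC library as in the early EMP library, and Ifitm1 5.42 times. Bst2 is also a known surface marker of plasmacytoid dendritic cells, whose other markers are given above; all 5 with a row were listed at 0 in fetal HSC. The neutrophil and melanocyte sums given above had the order of Bst2 and Ifitm1. Mpo was at 0.88, 39.2 and 47.9 FPKM, Elane at 0.42, 8.73 and 34.7 FPKM and Mlana at 0, 2.23 and 17.6 FPKM. S100a8 and Ly6g, of the neutrophil list, had other orders, both listed at 0 in late EMP. The part of such cells in these levels was not tested.

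The Ifi200 family showed opposite orders in Ifi205 and Ifi204, genes of 1 cluster on chromosome 1 with Ifi203 between them. Its products are nuclear proteins that bind DNA. Ifi205 (174011998 to 174031755) was at 0.04, 1.11 and 18.2 FPKM. It was near 0 in early EMP, and in fetal HSC it stood above 81.9% of genes with a symbol. The log2 difference of fetal HSC was 4.21 over early EMP and 3.19 over late EMP. For late over early EMP it was 1.02 and ranged from 0.278 to 3.11 over the settings tried. No depth is stated, but the spacing of low values implies 15300000 to 17000000 fragments a library. At that depth the early EMP value of Ifi205 rests on about 2 fragments and the fetal HSC value on about 969. Of its 50-base words 0.186% occur in other genes.
Ifi204 (173747293 to 173767069), a DNA sensor, was at 6.18, 4.21 and 0.63 FPKM. Fetal HSC was the low library, with log2 differences of -2.14 over early EMP and -1.68 over late EMP. Of its words 30.2% occur in other genes, 23.2% in Ifi211. Ifi203 was at 0.58, 0.45 and 0.49 FPKM, under the filter. The sum of the 3 genes was 6.80, 5.77 and 19.4 FPKM.

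Some markers of other cells had the order of these genes and some did not. In the dendritic list Flt3, the receptor of the cytokine that forms these cells, was at 0.07, 0.59 and 3.16 FPKM, and Xcr1, the chemokine receptor of their cross-presenting subset, at 0.03, 0.52 and 2.96 FPKM. Their order was that of Ifi205, as was that of Mpo, Elane and Mlana. Itgax was listed at 0 in early and late EMP and stood at 0.72 FPKM in fetal HSC. Clec9a was at 0, 0.23 and 0.44 FPKM, and Zbtb46 at 0.11, 0.67 and 0.62 FPKM, highest in late EMP. The macrophage complement genes C1qa, at 14.8, 12.2 and 3.05 FPKM, and C1qb, at 20.4, 13.3 and 3.96 FPKM, had the order of Ifi204. So did the kept macrophage markers C1qc, Csf1r and Mrc1. Cd68, at 17.8, 6.44 and 9.70 FPKM, was lowest in late EMP. Adgre1, at 0.50, 2.18 and 0.04 FPKM, was highest there. Of 7 kept macrophage markers 4 were at least 2-fold lower in fetal HSC than in early EMP, beside 8.60% of kept genes with a symbol. The T and NK cell list summed to 15.9, 5.59 and 17.0 FPKM over 6 genes with a row. Within it Cd3g was at 1.55, 5.36 and 12.0 FPKM, while Cd3e was at 13.5, 0 and 0.63 FPKM. The part of such cells in the values of Ifi205, Ifi204 and the other members was not tested.

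**Figure D3:**
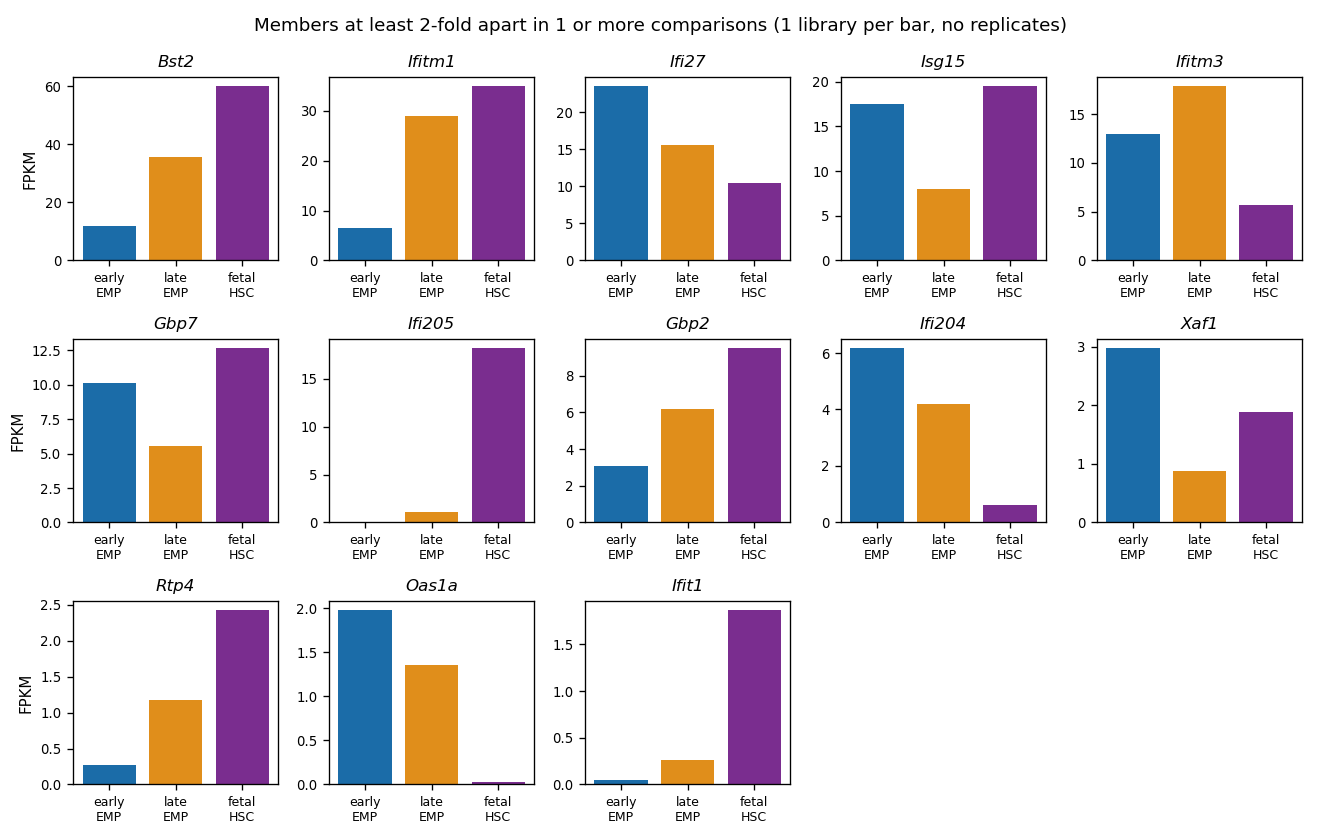
FPKM (vertical axis, from 0) in each library for the 13 members at least 2-fold apart in 1 or more comparisons, ordered by mean level; each bar is 1 library and there are no error bars. Bst2, Ifitm1, Ifi205, Gbp2, Rtp4 and Ifit1 are lowest in early EMP and highest in fetal HSC, while Ifi27, Ifi204 and Oas1a are the reverse.

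Isg15, Usp18 and Trim25 did not share the pattern of Bst2. Isg15, a ubiquitin-like protein joined to others during the response (chromosome 4, 156199424 to 156200818), was at 17.5, 8.01 and 19.5 FPKM. Late EMP was the low library, with a log2 difference of -1.04 over early EMP, and fetal HSC stood 1.19 above it. Usp18, which removes Isg15 and damps the receptor, was at 7.36, 4.15 and 4.0 FPKM, highest in the early EMP library. Trim25, a ubiquitin ligase that activates the RNA sensor RIG-I, was at 4.19, 2.53 and 3.18 FPKM. All 3 were lower in the late than in the early EMP library, Isg15 alone by 2-fold. With libraries rescaled to the same summed FPKM, Isg15 fell just short of 2-fold there, at -0.99.

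Ifit, Mx and oligoadenylate synthetase genes, the most inducible effectors in many cell types, were at low levels in all libraries. Ifit1, which binds viral RNA caps, was at 0.05, 0.26 and 1.87 FPKM with a log2 difference of 1.45 for fetal HSC over early EMP. About 2, 10 and 80 fragments lie behind these values at the implied depth. Ifit1 passed the filter through the fetal HSC library alone. Ifit3 was at 1.09, 0.31 and 0.28 FPKM and shares 51.2% of its words with Ifit3b. It passed through early EMP alone. Ifit2 was at 0.29 FPKM or less.
The antiviral GTPases Mx1 and Mx2 stayed at 0.36 FPKM or less, and Mx1 was listed at 0 in early and late EMP. Oas1a, which makes the RNase L activator when it binds double-stranded RNA, was at 1.98, 1.36 and 0.03 FPKM, and 57.6% of its words occur in Oas1g. The fetal HSC value gave log2 differences of -1.53 over early EMP and -1.2 over late EMP, and rests on about 1 fragment at the implied depth. Oasl2 was at 1.37, 1.44 and 0.27 FPKM. Oas2, Oas3 and Oasl1 stayed at 0.35 FPKM or less, with Oas3 and Oasl1 listed at 0 in the fetal HSC library.

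The RNA sensors Ddx58 and Ifih1, the enzymes Eif2ak2 and Adar, and Samhd1 and Isg20 lay within 2-fold in every comparison. So did 75.7% of kept genes with a symbol. Ddx58, which encodes RIG-I, was at 3.46, 4.53 and 5.40 FPKM. Ifih1, the related sensor of long double-stranded RNA, was at 1.57, 1.36 and 0.91 FPKM, and Eif2ak2, the kinase PKR that halts translation, at 1.94, 1.74 and 1.03 FPKM. The order of the libraries was thus reversed between Ddx58 and the other RNA sensors.
Adar, which edits adenosine in double-stranded RNA, was at 5.45, 4.52 and 3.72 FPKM. Zbp1, a sensor of left-handed nucleic acid, was listed at 0 in early EMP and stood at 0.20 and 0.82 FPKM in the others. Samhd1, which breaks down deoxynucleotides, was at 30.4, 28.4 and 24.6 FPKM, above at least 86.0% of genes with a symbol. Isg20, an exonuclease, was at 8.02, 8.29 and 16.1 FPKM. The log2 difference of fetal HSC was 0.93 over early EMP and 0.88 over late EMP, short of 2-fold, and reached 1.00 and 1.01 with median-of-ratios scaling. Rsad2, or viperin, and Cmpk2, its neighbour on chromosome 12, stayed at 0.55 FPKM or less.

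Guanylate-binding proteins, GTPases that attack the membranes around intracellular pathogens, were highest in the fetal HSC library. Gbp2 (chromosome 3, 142620663 to 142638008) was at 3.10, 6.16 and 9.51 FPKM. Gbp7 was at 10.1, 5.52 and 12.7 FPKM, with the late EMP library low, as for Isg15. Gbp3 was at 0.42, 0.45 and 0.83 FPKM. On the log2 scale Gbp2 was 1.36 higher in fetal HSC than in early EMP, and Gbp7 1.07 higher in fetal HSC than in late EMP.

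The remaining members were mixed. Ifi35, which pairs with Nmi, was at 39.4, 28.0 and 37.1 FPKM and Ifi27, a small mitochondrial protein, at 23.5, 15.6 and 10.5 FPKM. The log2 difference of Ifi27 was -1.09 for fetal HSC over early EMP. Xaf1, which counters an inhibitor of cell death, was at 2.98, 0.88 and 1.88 FPKM with a log2 difference of -1.08 for late over early EMP. Rtp4, a transporter protein for receptors, was at 0.27, 1.17 and 2.43 FPKM with a log2 difference of 1.43 for fetal HSC over early EMP. Of its words 13.6% occur in another gene. Sp100, of nuclear bodies, was at 8.97, 10.2 and 12.3 FPKM. The ADP-ribosyl transferases Parp9, at 5.38, 3.86 and 6.55 FPKM, and Parp14, at 4.07, 3.02 and 2.83 FPKM, lay within 2-fold. Ifi44 was at 0.89, 0.02 and 0.06 FPKM, under the filter.

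Late EMP over early EMP compares the progenitor waves, and here 3 of the 33 kept members were at least 2-fold higher and 2 lower. The higher genes were Ifitm1, Bst2 and Ifi205, and the lower ones Isg15 and Xaf1. Of all kept genes 8.65% were as much higher and 10.8% as much lower; of those with a symbol, 7.55% and 4.24%. The median of the members was -0.12 on the log2 scale, with 13 above 0 and 20 below, and that of all kept genes with a symbol was 0.06.

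Fetal HSC over early EMP gave 6 members at least 2-fold higher and 4 lower. Higher were Ifi205, Ifitm1, Bst2, Ifit1, Rtp4 and Gbp2, and lower Ifi204, Oas1a, Ifi27 and Ifitm3. Among all kept genes 8.19% were higher and 17.8% lower, and among those with a symbol 8.08% and 8.60%. The members' median was -0.30, with 14 above 0 and 19 below, beside -0.03 for genes with a symbol. With a filter at 5 FPKM the members' median was 0.012. Both comparisons with early EMP share that library, so their values are not independent.

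Fetal HSC over late EMP sets apart the libraries made with the same driver, and 4 members were at least 2-fold higher and 3 lower. Higher were Ifi205, Isg15, Ifit1 and Gbp7, and lower Ifi204, Ifitm3 and Oas1a. The background was 3.46% higher and 8.26% lower over all kept genes, and 2.73% and 5.36% over those with a symbol. The median of the members was 0.16 and that of genes with a symbol -0.08. In the 3 comparisons together 20 of 33 members, or 60.6%, lay within 2-fold throughout, beside 75.7% of kept genes with a symbol. Of the other members Ifit1 passed the filter through 1 library only, and Ifi204, Ifi205, Oas1a, Rtp4 and Xaf1 were under 1 FPKM in 1 library; a gene that passes only where it is high had to differ.

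**Figure D4:**
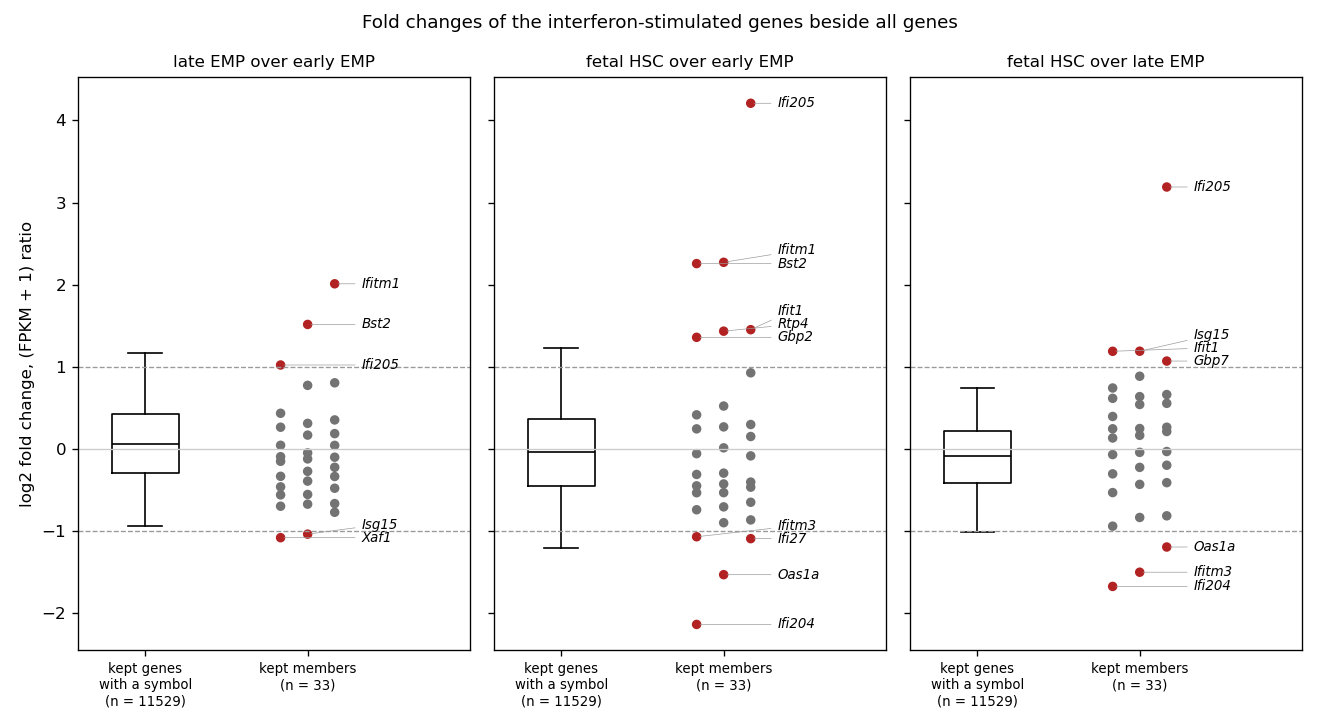
Log2 fold change of (FPKM + 1) on the vertical axis in each of the 3 comparisons; boxes span the quartiles of the 11529 kept genes with a symbol, the line is their median and whiskers reach the 5th and 95th percentiles, and points are the 33 kept members, in red and named where at least 2-fold apart (dashed lines). Ifi205 is the highest point where fetal HSC is compared, and Ifitm1 and Bst2 where late EMP is compared with early EMP.

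Of 21 interferon genes listed, 3 had a row, and only Ifnz reached 1 FPKM, at 1.62 FPKM in early EMP, 0.72 FPKM in late EMP and a listed 0 in fetal HSC. Receptors and signal carriers had a value above 0 in every library for all 12 genes read. Ifnar2, the type I receptor chain, was at 79.2, 101 and 95.3 FPKM, and Il10rb, a chain shared with the interferon lambda receptor, at 79.7, 89.6 and 71.4 FPKM. Of 12 measured genes of this list, 11 lay within 2-fold in both comparisons with early EMP and 12 between fetal HSC and late EMP. Among kept genes with a symbol 88.2% did so for late over early EMP. The share was 83.3% for fetal HSC over early EMP and 91.9% for fetal HSC over late EMP. The exception in the list was Stat4, a signal carrier of interleukin 12, at 0.39, 3.91 and 4.32 FPKM, named after its values were seen.

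Among 14 kept genes that induce interferon, Tmem173, which encodes the adaptor STING, was at 39.2, 37.5 and 32.8 FPKM and Myd88, the adaptor of Toll-like receptors, at 38.8, 32.3 and 27.6 FPKM. Irf8, a factor of dendritic and other myeloid cells, was at 0.21, 2.18 and 11.5 FPKM. Its order was that of Ifi205, Flt3 and Xcr1, and also of Mpo, Elane and Mlana, while Zbtb46 was highest in late EMP. The log2 differences of Irf8 in fetal HSC were 3.36 over early EMP and 1.97 over late EMP. Mb21d1, the DNA sensor cGAS, was at 1.76, 2.81 and 5.11 FPKM, with a log2 difference of 1.15 for fetal HSC over early EMP. No kept gene of the list was 2-fold lower in any comparison, where 4.24%, 8.60% and 5.36% of kept genes with a symbol were.

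Of 10 genes that restrain the pathway none was at least 2-fold higher in any comparison, and 1, 2 and 1 were lower in the 3 comparisons. Kept genes with a symbol were higher in 7.55%, 8.08% and 2.73% of cases and lower in 4.24%, 8.60% and 5.36%. The phosphatases Ptpn2 and Ptpn6 were at 238, 328 and 289 FPKM and at 239, 245 and 218 FPKM. Ubash3b, another phosphatase, was at 50.9, 22.1 and 19.6 FPKM, with log2 differences from early EMP of -1.17 for late EMP and -1.33 for fetal HSC. Socs3, a feedback inhibitor of kinase signalling, was at 3.0, 2.73 and 0.56 FPKM, while Socs1, which interferons induce, was at 18.0, 16.9 and 19.0 FPKM.

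**Figure D5:**
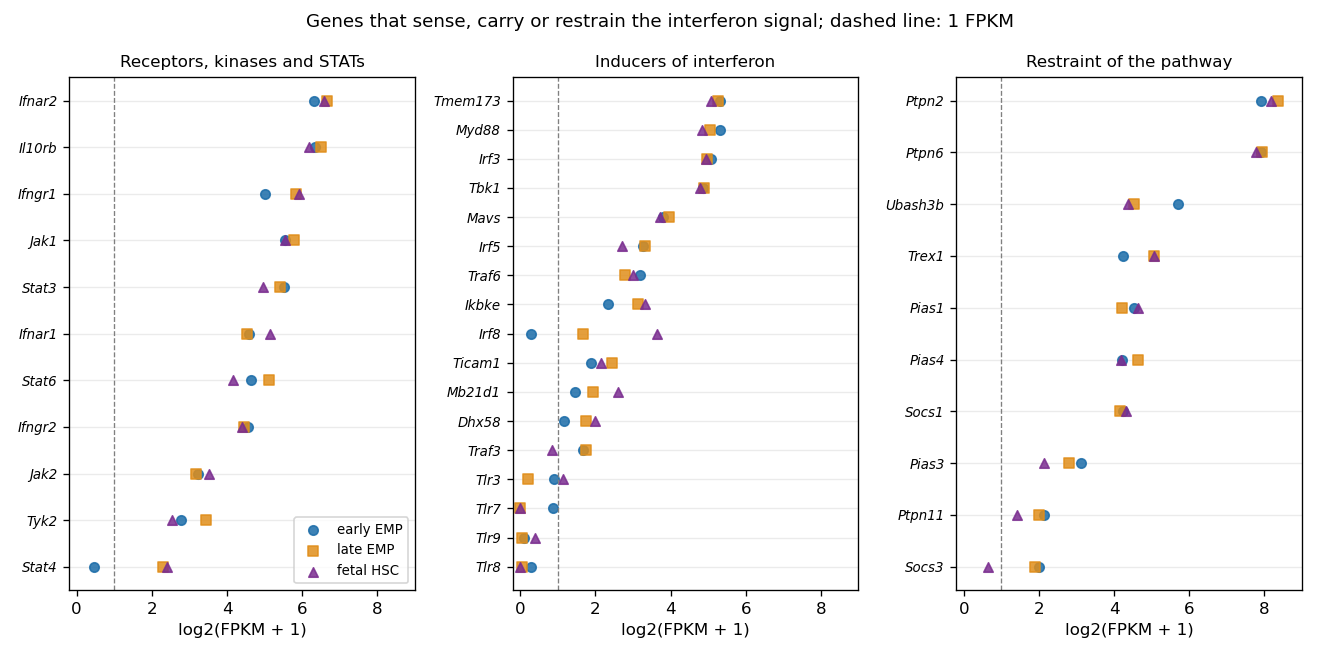
Levels as log2(FPKM + 1) on the horizontal axis of listed genes that carry, induce or restrain the interferon signal, 1 gene not shown, with 1 symbol per library and the dashed line at 1 FPKM. Symbols lie close together for most genes; Irf8 and Stat4 are the most spread.

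A further list of 62 other interferon-stimulated genes had 52 with a row and 41 kept. Of these 6 were at least 2-fold higher and 5 lower in late than in early EMP, 6 higher and 5 lower in fetal HSC than in early EMP, and 2 higher and 3 lower in fetal HSC than in late EMP. Beside these counts, 7.55%, 8.08% and 2.73% of kept genes with a symbol were higher in the 3 comparisons, and 4.24%, 8.60% and 5.36% lower. The medians of the list were 0.095, 0.017 and 0.035 on the log2 scale. The most abundant were the lectin Lgals9, at 355, 382 and 257 FPKM, and Shisa5, at 54.2, 81.9 and 60.2 FPKM. Ly6e and Ly6a, surface proteins anchored by a lipid, had the order of Ifitm1, at 14.0, 64.8 and 71.9 FPKM and at 2.4, 8.37 and 9.05 FPKM. Ube2l6, the conjugating enzyme for Isg15, was at 15.9, 41.1 and 26.8 FPKM, with a log2 difference of 1.32 for late over early EMP; that of Isg15 was -1.04. In the other direction Ifi27l2a was at 8.70, 2.41 and 2.91 FPKM, Phf11b at 9.69, 2.52 and 5.73 FPKM, and Pyhin1, an Ifi200 relative, at 21.7, 18.6 and 9.24 FPKM. Between fetal HSC and late EMP, Tor3a was at least 2-fold higher, at 4.23, 3.02 and 7.59 FPKM, and Trim14 lower, at 33.0, 41.2 and 19.9 FPKM.

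Targets that respond mainly to interferon gamma numbered 13 kept genes of 22 listed. In fetal HSC over early EMP 5 of the 13 were at least 2-fold higher and 2 lower, and in fetal HSC over late EMP 4 higher and 1 lower; for late over early EMP it was 2 higher and 1 lower. Of all kept genes with a symbol, 8.08%, 2.73% and 7.55% were higher in these comparisons, in the order given, and 8.60%, 5.36% and 4.24% lower. Cxcl9, Gbp6, Tgtp1 and Gbp9 passed the filter through fetal HSC alone and so had to be highest there. The first 2 are among the 5, and the first 3 among the 4. Gbp9, at 0.41, 0.54 and 1.56 FPKM, was within 2-fold. Cxcl10, a chemokine for T cells, was at 1.07, 1.85 and 9.03 FPKM, and Ifi30, a lysosomal thiol reductase of antigen processing, at 4.95, 8.02 and 14.5 FPKM. The GTPases of the Irg family had no single order. Irgm1 was at 33.7, 33.1 and 22.6 FPKM and Igtp at 13.7, 12.8 and 5.27 FPKM. Tgtp2 was at 1.81, 7.33 and 6.03 FPKM and Cd274, the checkpoint ligand PD-L1, at 21.1, 28.4 and 29.6 FPKM. Ifi47, another Irg family member, was at 0.86, 5.17 and 2.42 FPKM, highest in late EMP. Cxcl9 and Gbp6, named after their values were seen, were at 0.15 FPKM or less in both EMP libraries and at 1.67 and 2.13 FPKM in fetal HSC. T and NK cells are known sources of interferon gamma, and dendritic cells and macrophages of Cxcl9; their marker values stand above, and their part here was not tested.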

How the data were processed

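Sorted skin mast cells were lysed in TRIzol for total RNA, and libraries were made and run on an Illumina HiSeq, as the labels' protocols state. Values are FPKM as the authors deposited them, in 1 table with 2 decimals, per the file headers. Bowtie2, RSEM, mm10 and GRCm38 are named in the submitters' processing notes, without versions or roles. For early EMP, the table's column carries the short name that the sample's description gives. RSEM-type estimates can move reads between near-identical copies, and a listed 0 can be a failed estimate.

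Each origin has 1 library, so no test was made and no p-value is given. Levels were compared as log2((FPKM + 1) / (FPKM + 1)), which understates the difference of low genes. Genes at 1 FPKM or more in at least 1 library were kept, 14412 of 20677. Genes at least 2-fold apart on that scale were counted. The members, their roles and the companion lists were chosen with earlier results of these data known. Every member is accounted for. One gene of a companion list is counted there but not reported by name here. Values in every library are given for members at 5 FPKM or more or at least 2-fold apart, and of each companion list for the 2 most abundant genes and those furthest apart at 5 FPKM or more; other list genes named were chosen after their values were seen.

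Coordinates and promoter windows are RefSeq's on GRCm38.p6, matched by gene ID for 45 members and 35 members, respectively. Words of 50 bases were compared across GENCODE M21 transcripts. Depth is not stated. Spacing of low values among single-transcript genes gives 15300000, 15500000 and 17000000 fragments for early EMP, late EMP and fetal HSC, an imprecise estimate chosen to fit those values. With it 74.2%, 76.1% and 67.2% of low values lay within 0.15 of a whole fragment. The alternatives tried were a pseudocount of 0.1 or 5 FPKM, no filter, a filter at 5 FPKM, 3 rescalings of the libraries, and leaving out members with close paralogues. Paralogues were taken by family name (Ifit, Oas, Mx, Ifitm, Ifi203 to Ifi205 and Gbp), not by shared words. The background of genes with a symbol was chosen after seeing the data. The counting of fold changes was checked on simulated data. Python 3.11.15, numpy 2.4.6, pandas 2.3.3 and matplotlib 3.10.9 were used.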

Additional observations from a re-analysis of the deposited data

How the results depend on the processing

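No paired analysis was possible because each origin has 1 library. Under 8 settings, 57 of 72 recomputed counts and medians of the members stayed within 1.5 times or 0.25 log2 of the reported value. In late over early EMP the count of higher members went from 3 to 5 with a pseudocount of 0.1 FPKM and to 1 without close paralogues; that of lower members went from 2 to 0 with a pseudocount of 5 FPKM, and to 1 with the filter at 5 FPKM or with equal sums. In fetal HSC over early EMP the 6 higher became 3 with a pseudocount of 5 FPKM and 2 without paralogues, the 4 lower became 0 and 1, and the median became 0.012 with the filter at 5 FPKM. In fetal HSC over late EMP the 4 higher became 1 under both settings, and the 3 lower became 5 with a pseudocount of 0.1 FPKM, 1 with 5 FPKM and 0 without paralogues. A larger pseudocount shrinks low genes by construction, and fewer members enter without paralogues. That last setting goes by family name and not by shared words. It left out Ifi205, with 0.186% of words shared, as well as Ifitm2, with 48.5%, and kept Rtp4, with 13.6%. The sign of all 22 single calls was kept under every setting that kept the gene, but this had to be so. A pseudocount or a filter cannot turn a sign. The rescaling factors, from 0.9635 to 1.0577, were too close together to turn a 2-fold call. Under every setting that kept the gene, 7 calls, of Bst2, Ifitm1, Ifi205 and Ifitm3, stayed past 2-fold. Depth is implied only; at it, 3 fragments equal 0.024 to 0.39 FPKM across the members, so lower values rest on few fragments.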
